A study of Mus musculus with 14 samples.

Results

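The MiT/TFE transcription factors TFEB, TFE3, MITF and TFEC were examined together with 6 proteins that control them at the lysosome: folliculin (Flcn), its partners Fnip1 and Fnip2, the small GTPases Rragc and Rragd, and the calcium channel Mcoln1. These 10 genes were taken by name, out of 21356 genes with a symbol on the array, and every probe whose RefSeq accession belongs to one of them was kept, 14 of 55634 usable probes. Tfe3, Mitf, Flcn and Rragc have 2 probes each, and probe 1 is the brighter of the pair. Expression was measured on 14 one-colour Agilent microarrays of macrophages that had been grown with M-CSF from the marrow of female C57BL/6 mice aged 8 weeks. Animals of both genotypes are labelled LysM-Double-Cre, a Cre recombinase driven by the myeloid lysozyme M promoter. The transgenic group also carries the TFEB transgene, and the group titled TFEB-wt, called wild-type here, does not. For 24 h the cells were kept in DMEM only (control) or in DMEM with serum-free medium conditioned by EO771 mouse mammary tumour cells plus EO771 lysate (tumour material). Wild-type cells gave 3 replicates in each medium, on 4 arrays each, and transgenic cells gave 3 in control medium and 2 with tumour material, on 3 arrays each. Replicate 1 of the last group was not analysed here. The design calls the replicates biological but does not say whether each came from its own animal. The p-values therefore measure the spread between these samples and their repeat arrays only. The design asks how macrophages of either genotype respond to tumour material and how the genotypes differ within a medium.

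TFEB, TFE3, MITF and TFEC are basic helix-loop-helix leucine zipper proteins that bind DNA as dimers at E-box sequences, and TFEB and TFE3 are best known for driving genes of lysosomes and autophagy. When amino acids are plentiful, the Rag GTPases RagC and RagD hold TFEB and TFE3 at the lysosome, where the kinase complex mTORC1 phosphorylates them and 14-3-3 proteins then keep them in the cytosol. Folliculin with FNIP1 or FNIP2 is the GTPase-activating complex for RagC and RagD, and is needed for that phosphorylation. Calcium leaving the lysosome through MCOLN1 activates the phosphatase calcineurin, which removes the phosphates and lets TFEB enter the nucleus. Much of this control acts on protein location and phosphorylation, which arrays do not measure.

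All levels below are scaled log2 signals, the log2 of a probe's signal minus the log2 of the 75th percentile of its array, so that 0 means a signal equal to that percentile. Levels of different probes are not comparable. A value of a replicate measured on 2 arrays is their mean. Differences and adjusted p-values are from limma with a term for the 2 slides and Benjamini-Hochberg adjustment over 20208 probes, and a probe was called at an adjusted p under 0.05.

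Of the 8 macrophage markers checked, 7 (Csf1r, Adgre1, Cd68, Mertk, Fcgr1, Itgam and Cd14) were well above background on all 14 arrays. The probe matched to Lyz2, the gene of lysozyme M, was well above background on 1 of 4 wild-type control and 3 of 4 wild-type tumour arrays and on 0 transgenic arrays. The 5 epithelial and tumour markers (Epcam, Krt8, Krt18, Krt19, Cdh1) were above background on 0 arrays. The summed linear level, relative to the 75th percentile, of 5 fibroblast genes was 1.33 to 20.4 in wild-type controls, 32.7 to 43.0 in wild-type cells with tumour material, 0.908 to 9.94 in transgenic controls and 7.60 to 8.85 in transgenic cells with tumour material. Of the 4 tested, 1 was called lower in the difference of responses, where 0.747% of all probes were. Wild-type control replicate 2 was low in fibroblast genes (scaled log2 Dcn −2.42, against 2.63 and 2.76). In wild-type cells with tumour material Dcn and Lum lay above every control replicate. There Col1a1, Col1a2 and Pdgfrb lay below control replicates 1 and 3 instead (Col1a2 2.56, 2.70 and 2.16, against 3.40 and 3.49). The part of these genes' source in the results below was not tested. Transgenic control replicate 1 stood apart, correlating with its group at 0.957 and 0.955 across probes, while the pairs of replicates in the other groups reached 0.988 to 0.994. The like sum of 8 neutrophil and precursor genes ran from 178 to 576 in transgenic controls and from 234 to 250 in wild-type controls, and it was lower with tumour material (53.7 to 91.3 in wild-type, 32.1 to 35.4 in transgenic cells). In a bulk sample fewer cells of a type and less RNA per cell cannot be told apart. In slide column 4, where replicates 1 and 2 of the transgenic controls and a repeat array of replicate 3 with tumour material lay, the scanner software applied a larger spatial correction (0.253 to 0.331, against at most 0.126 elsewhere). All transgenic tumour arrays lie on slide 2.

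Tfeb itself was measured by 1 probe (A_55_P1997898, NM_001161722), and the labels do not say whether the transgene carries its target sequence, so the probe may read the resident gene alone. In wild-type controls the scaled log2 signal of Tfeb was 0.99, 0.82 and 0.89, and with tumour material it was −0.71, −0.69 and −0.60. In transgenic controls it was 1.35, 1.36 and 0.86, and in transgenic cells with tumour material 0.01 and −0.12. Tfeb was thus lower in every replicate given tumour material than in every control replicate of either genotype, while replicates 1 and 2 of the transgenic controls were the highest of all and replicate 3 lay within the wild-type controls. Tumour material lowered the Tfeb signal to 0.342 of control in wild-type cells (log2 difference −1.55 ± 0.12 (SE), adjusted p = 1.8e-06) and to 0.447 in transgenic cells (−1.16 ± 0.16, adjusted p = 0.000268). Within slides, the wild-type difference was −1.60 on slide 1 and −1.39 on slide 2 (adjusted p = 0.0557), and the transgenic one, on slide 2 alone, −0.91 (adjusted p = 0.0707). With normexp background correction on the median signal, taken before the scanner's spatial correction, the falls were smaller, −0.90 in wild-type (adjusted p = 0.00352) and −0.83 in transgenic cells (adjusted p = 0.0521, not called). Normexp here also added an offset of 50 to each signal. The scanner signal of Tfeb was 51.4 to 60.7 on wild-type tumour arrays and 157 to 216 on wild-type control arrays. The part of the offset was not tested. Between genotypes, Tfeb was 0.69 ± 0.16 higher on the log2 scale in transgenic than in wild-type cells with tumour material (adjusted p = 0.0293, groups not overlapping). In control medium the difference was 0.31, with a 95% interval of 0.02 to 0.59 and an adjusted p of 0.175, and the groups overlapped. The 2 responses differed by 0.39, with an interval of −0.05 to 0.83 and an adjusted p of 0.498.

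The genotype difference of Tfeb with tumour material lost its call when any of 6 replicates was left out: wild-type control 3 (0.69, adjusted p = 0.0565), wild-type tumour 1 (0.67, 0.0768), 2 (0.67, 0.0552) or 3 (0.91, 0.0976), and transgenic tumour 2 (0.65, 0.0662) or 3 (0.76, 0.224). It was 0.52 on slide 2 (adjusted p = 0.375) 1.05 without the 3 repeat arrays (adjusted p = 0.0537) and 0.83 with normexp (adjusted p = 0.0957), so its direction held and its call did not. In control medium the Tfeb difference between genotypes rested on transgenic control replicates 1 and 2, whose arrays lie in slide column 4: it was −0.02 without that column's arrays (adjusted p = 0.964) and 0.46 without transgenic control replicate 3 (adjusted p = 0.0382). With normexp this difference was larger, 0.75, and was not called.

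**Figure D1:**
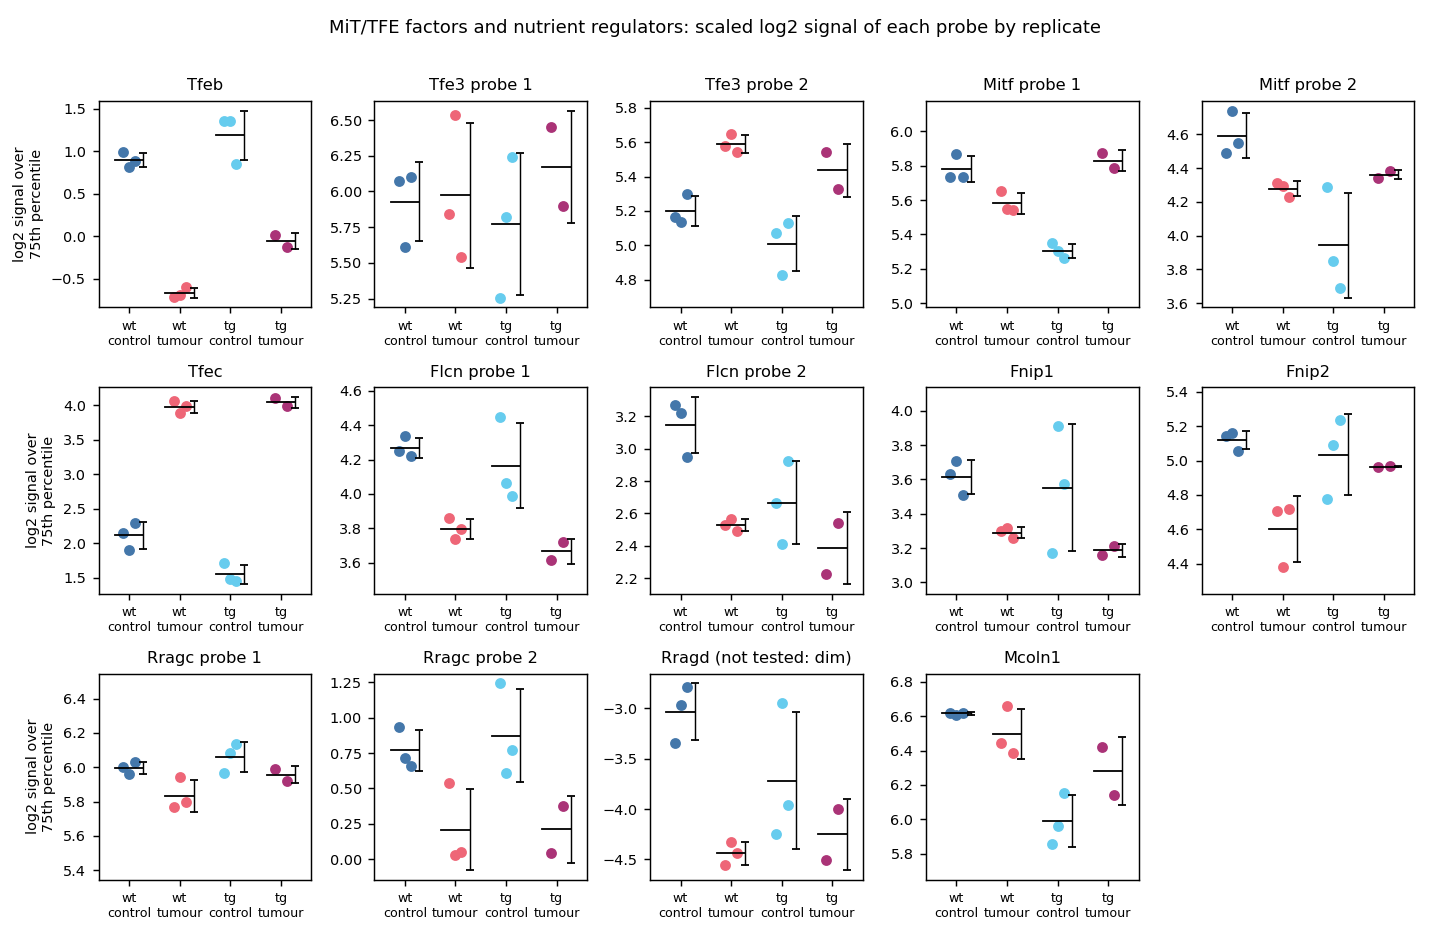
Scaled log2 signal of all 14 probes by group (wt, wild-type; tg, transgenic; tumour, tumour material); each point is a replicate, the horizontal line the group mean and the bar the SD, and each panel has its own axis. Tfeb is lower and Tfec higher in every replicate with tumour material than in any control, and both Mitf probes are lowest on average in the transgenic controls.

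Tfe3, which shares many target genes with Tfeb, gave unequal pictures with its 2 probes, both matched to NM_001271490. The brighter one (A_55_P2099378) read 6.07, 5.61 and 6.10 in wild-type controls, 5.84, 6.53 and 5.54 in wild-type cells with tumour material, 5.25, 5.82 and 6.24 in transgenic controls and 6.45 and 5.90 in transgenic cells with tumour material. All 4 groups overlapped on this probe, and replicate SDs of 0.28 to 0.51 left no called difference. Its repeat arrays of transgenic tumour replicate 3 differed by 0.70, the largest gap of any member there. The dimmer Tfe3 probe (A_55_P2099379) was steadier, at 5.17, 5.14 and 5.30 in wild-type controls and 5.58, 5.65 and 5.55 with tumour material. Its transgenic controls read 5.07, 4.83 and 5.13, and its transgenic tumour replicates 5.55 and 5.33. On this probe every replicate with tumour material lay above every control replicate. For transgenic tumour replicate 3 this holds for the mean only. Its 2 arrays read 5.60 and 5.05, and the second lay below every wild-type control replicate. The rise was 0.36 ± 0.13 on the log2 scale in wild-type cells (adjusted p = 0.0486) and 0.35 ± 0.17 in transgenic cells (adjusted p = 0.171). The wild-type call was lost on leaving out any single wild-type replicate (adjusted p 0.0872 to 0.112 without control 1, 2 or 3 or tumour 1, 2 or 3), and quantile normalization brought the value to 0.19 (adjusted p = 0.28). It was 0.39 on slide 1 and 0.23 on slide 2.

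Mitf, the family member that directs melanocyte development and also acts in osteoclasts and mast cells, was read by A_55_P2176838 (probe 1) and A_55_P2152437 (probe 2), both matched to NM_001113198. Probe 1 read 5.74, 5.87 and 5.74 in wild-type controls and 5.65, 5.55 and 5.54 with tumour material. It read 5.35, 5.30 and 5.26 in transgenic controls and 5.87 and 5.79 in transgenic cells with tumour material. The transgenic controls were the lowest group on probe 1, without overlap with any other, and tumour material brought the transgenic cells level with the wild-type controls. Probe 2 read 4.49, 4.74 and 4.55 in wild-type controls, 4.31, 4.29 and 4.23 in wild-type cells with tumour material, 4.29, 3.85 and 3.69 in transgenic controls, and 4.34 and 4.38 in transgenic cells with tumour material. The order was the same at the bottom, although transgenic control replicate 1 overlapped the wild-type tumour group, and here the transgenic tumour replicates stayed below the wild-type controls.

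In control medium Mitf was lower in transgenic than in wild-type cells by both probes, with log2 differences of −0.46 ± 0.09 (adjusted p = 0.00899) for probe 1 and −0.63 ± 0.13 (adjusted p = 0.0113) for probe 2. In transgenic cells Mitf rose with tumour material by 0.56 ± 0.11 (adjusted p = 0.00279) and 0.53 ± 0.16 (adjusted p = 0.0274). In wild-type cells the same probes gave −0.20 (interval −0.38 to −0.02, adjusted p = 0.0776) and −0.31 (interval −0.57 to −0.05, adjusted p = 0.0537), which did not pass; quantile normalization brought both falls past the threshold (−0.37 and −0.44). The 2 responses of probe 1 differed by 0.76 ± 0.14, with an interval of 0.46 to 1.06 and an adjusted p of 0.0164. For probe 2 the difference was 0.84 ± 0.20 and did not pass (adjusted p = 0.0577).

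The Mitf results varied as follows. Without transgenic control replicate 1, the library that stood apart, the genotype differences in control medium were −0.47 (adjusted p = 0.00584) and −0.79 (adjusted p = 0.000325), and the difference of responses of probe 2 passed (0.96, adjusted p = 0.00141). Probe 2 also passed there without transgenic control replicate 2 (0.80, adjusted p = 0.0494). Without wild-type control replicate 3, the genotype difference in control medium passed for neither probe (−0.48 with adjusted p = 0.0768 for probe 1, −0.60 with adjusted p = 0.107 for probe 2). The difference of responses of probe 1 did not pass without wild-type tumour replicate 3 (0.76, adjusted p = 0.214) or transgenic tumour replicate 3 (0.81, adjusted p = 0.129), and the transgenic response of probe 2 did not pass without those (0.57, adjusted p = 0.052, and 0.45, adjusted p = 0.22) or without transgenic control replicate 3 (0.36, adjusted p = 0.217). Within slide 2 the difference of responses was 0.72 for probe 1 and 0.98 for probe 2, and the transgenic responses were 0.57 and 0.67. The genotype difference in control medium was −0.47 on slide 1 (adjusted p = 0.042) and −0.42 on slide 2 for probe 1. For probe 2 it was −0.53 (adjusted p = 0.0869, not called) and −0.85. None of these slide 2 values was called. With a term for slide column 4, probe 1 was −0.45 in control medium and not called (adjusted p = 0.0572), while probe 2 kept its call. With normexp background correction on the median signal before spatial correction, the difference of probe 1 in control medium was −0.01 (adjusted p = 0.977), while that of probe 2 was −0.63 (adjusted p = 0.00687). Under normexp the transgenic response of Mitf passed for neither probe (0.48, adjusted p = 0.104, and 0.43, adjusted p = 0.0565), and under quantile normalization that of probe 2 did not (0.41, adjusted p = 0.0706). The difference of responses of probe 1 was 0.71 with normexp (adjusted p = 0.228) and 0.78 with repeat arrays averaged (adjusted p = 0.133), neither called. Of the melanocyte markers Tyr, Dct, Pmel and Mlana, Tyr alone was above background on all arrays, and the other 3 were above it on 0. The mast cell marker Kit read −0.55, 2.37 and 2.38 in transgenic controls and 2.53 and 2.44 in transgenic cells with tumour material. In wild-type replicates Kit lay between −0.57 and 0.52. Kit was called in no comparison, Cpa3 split alike at lower signals, Tpsb2 overlapped between genotypes, and their part was not tested.

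Tfec, a family member expressed mainly in myeloid cells, moved opposite to Tfeb. Its probe (A_52_P127925, NM_031198) read 2.15, 1.90 and 2.30 in wild-type controls and 4.06, 3.89 and 3.99 with tumour material, against 1.71, 1.48 and 1.46 in transgenic controls and 4.10 and 3.99 in transgenic cells with tumour material. The control groups did not overlap with each other or with the tumour groups, whereas the tumour groups overlapped. Tfec rose 3.54-fold in wild-type cells (1.83 ± 0.13, adjusted p = 9.84e-07) and 5.53-fold in transgenic cells (2.47 ± 0.18, adjusted p = 1.92e-06), and both rises passed under every alternative run, 24 and 23 in number. On slide 1 the wild-type rise was 1.86 and on slide 2 it was 1.71, and the transgenic rise on slide 2 was 2.59.

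In control medium Tfec was lower in transgenic than in wild-type cells (log2 difference −0.61 ± 0.14, adjusted p = 0.023). The value was −0.73 without transgenic control replicate 1, and Tfec was not called when wild-type control 1 (−0.61, adjusted p = 0.054), wild-type control 3 (−0.45, 0.201) or transgenic control 3 (−0.55, 0.0553) was left out. It was −0.52 on slide 1, −0.83 on slide 2 and −0.41 when a term for column 4 was fitted (adjusted p = 0.288), and with repeat arrays averaged it was −0.57 (adjusted p = 0.0524). With tumour material the genotypes differed by 0.03, interval −0.35 to 0.41. The difference of the 2 responses, 0.64 (interval 0.16 to 1.12), did not pass after adjustment (adjusted p = 0.228).

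**Figure D2:**
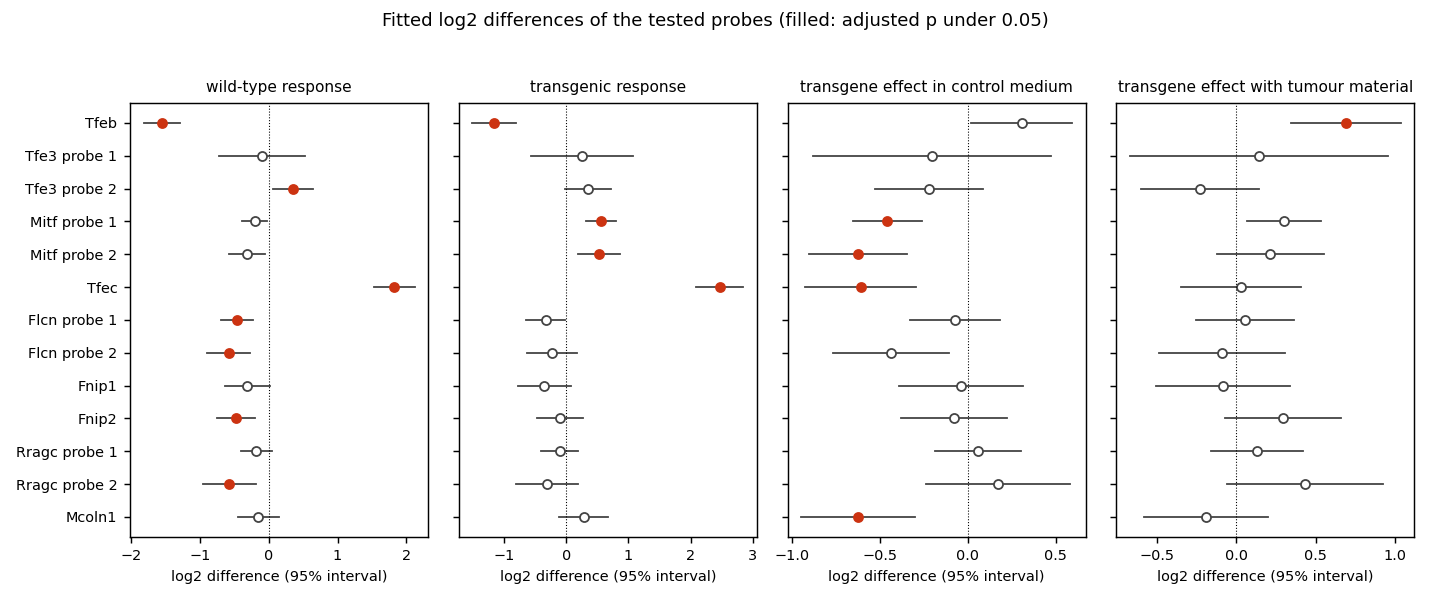
Log2 differences of the 13 tested probes in 4 comparisons, with 95% intervals; responses are tumour material minus control and transgene effects are transgenic minus wild-type, and filled points passed at an adjusted p under 0.05. Tfec and Tfeb have the widest shifts with tumour material in both genotypes, in opposite directions, and the horizontal scale differs between panels.

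To show which genes kept closest to the factors, the brightest tested probe of each of 10973 genes was compared with theirs over the 11 replicates after centring each probe, by the root mean square difference in log2 signal. Nearest to Tfeb were Paqr7 (0.178), Lrrc20 (0.189), Bmt2 (0.195), which encodes the S-adenosylmethionine sensor SAMTOR, and Rell1 (0.204), where the median gene was 0.861 away. Among the genes nearest to Mitf probe 1 were Spatc1l (0.097), Lrch1 (0.0988) and Ankrd13d (0.118), against a median of 0.398. Nearest to Tfec were Csrnp1 (0.129), 1300002E11Rik (0.177), Slc31a2 (0.186) and Acsl1 (0.199), a long-chain acyl-CoA synthetase, against a median of 1.13. Mitf varied least of the 3 factors, so small distances from it are easier to reach. The distances are descriptive, because all probes share the same arrays.

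Among the regulators, folliculin was lower with tumour material in wild-type cells by both of its probes, which are matched to NM_146018. Flcn probe 1 (A_55_P1967648) read 4.25, 4.34 and 4.22 in wild-type controls and 3.86, 3.74 and 3.79 with tumour material, and 4.45, 4.06 and 3.99 in transgenic controls against 3.61 and 3.72. Flcn probe 2 (A_55_P2140151) read 3.27, 3.22 and 2.95 against 2.53, 2.57 and 2.49 in wild-type cells, and 2.66, 2.41 and 2.93 against 2.23 and 2.54 in transgenic cells. Control and tumour groups were separate on both probes in wild-type cells, and in transgenic cells on probe 1 only. The wild-type falls were −0.46 ± 0.11 (adjusted p = 0.00546) and −0.58 ± 0.14 (adjusted p = 0.00613). The transgenic values were −0.33 (interval −0.65 to −0.02, adjusted p = 0.113) and −0.23 (interval −0.64 to 0.17, adjusted p = 0.394), and the differences of responses, 0.13 and 0.35, did not pass (adjusted p = 0.869 and 0.646). The wild-type call was lost for probe 2 without wild-type tumour replicate 3 (−0.54, adjusted p = 0.0731) and for probe 1 with normexp (−0.46, adjusted p = 0.112). Within slides, the wild-type falls were −0.48 and −0.40 for probe 1 and −0.63 and −0.41 for probe 2. The transgenic fall of Flcn depended on the setting. Probe 1 passed without transgenic control replicate 2 (−0.40, adjusted p = 0.0421), without the arrays of slide column 4 (−0.38, 0.0417), under quantile normalization (−0.47, 0.0334) and without a slide term (−0.49, 0.027). Probe 2 was −0.59 and passed without the repeat arrays (adjusted p = 0.0494) or those of column 4 (0.0205), and was 0.09 without transgenic control replicate 3 (adjusted p = 0.804). Without that replicate Flcn probe 2 was also lower in transgenic than in wild-type controls (−0.60, adjusted p = 0.0302).

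Of the folliculin partners, Fnip2 (A_52_P494930, NM_001162999) read 5.14, 5.16 and 5.06 in wild-type controls and 4.71, 4.38 and 4.72 with tumour material, a log2 difference of −0.48 ± 0.13 (adjusted p = 0.0116). In transgenic cells Fnip2 read 4.77, 5.09 and 5.24 in control medium and 4.96 and 4.97 with tumour material, with overlapping groups and a difference of −0.10 (interval −0.47 to 0.26). The 2 responses differed by 0.37 and did not pass (adjusted p = 0.56). The wild-type fall of Fnip2 was −0.57 on slide 1 and −0.18 on slide 2, and it missed the threshold without transgenic tumour replicate 3 (−0.51, adjusted p = 0.0521). Fnip1 (A_55_P2091836, NM_173753) read 3.63, 3.71 and 3.51 in wild-type controls and 3.30, 3.32 and 3.26 with tumour material, and 3.17, 3.91 and 3.57 in transgenic controls against 3.16 and 3.21. Wild-type control and tumour replicates of Fnip1 did not overlap, yet its differences did not pass: −0.31 in wild-type (adjusted p = 0.124) and −0.35 in transgenic cells (adjusted p = 0.222). Without transgenic control replicate 1, whose Fnip1 signal was the lowest of the 6 controls, both passed (−0.30, adjusted p = 0.0211, and −0.48, adjusted p = 0.0194). The wild-type one also passed without transgenic control replicate 2 (−0.30, adjusted p = 0.0395), under quantile normalization (−0.43, 0.0417) and with normexp (−0.46, 0.0177).

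For the Rag GTPase gene Rragc, the probes differed in their calls. Rragc probe 1 (A_51_P346826, NM_017475) stayed between 5.77 and 6.13 in all 11 replicates, and its wild-type difference was −0.18 (interval −0.41 to 0.05, adjusted p = 0.193), which quantile normalization brought past the threshold (−0.34, adjusted p = 0.0254). Between genotypes in control medium it was 0.06 and not called, but 0.65 with normexp (adjusted p = 0.0228). Rragc probe 2 (A_52_P202725), matched to the same accession, read 0.93, 0.71 and 0.66 in wild-type controls and 0.54, 0.03 and 0.06 with tumour material, a called log2 difference of −0.57 ± 0.17 (adjusted p = 0.0218). Its transgenic values were 1.24, 0.61 and 0.77 in control medium and 0.05 and 0.38 with tumour material (−0.31, adjusted p = 0.371). The repeat arrays of Rragc probe 2 differed by 0.69 in wild-type control replicate 3 and by 0.66 in wild-type tumour replicate 3, more than the fall itself. The call was lost without wild-type control 1 (−0.54, adjusted p = 0.056) or 3 (−0.56, 0.0878), wild-type tumour 2 (−0.48, 0.0656) or 3 (−0.55, 0.122), or transgenic tumour 3 (−0.56). It was also lost on slide 1 (−0.56, adjusted p = 0.0719), on slide 2 (−0.59) and without a slide term (−0.57, 0.07). The same held with repeat arrays averaged (−0.56, 0.0661) or left out (−0.56, 0.0539), with a term for column 4 (−0.56, 0.0532) and without the filter on dim probes (−0.57, 0.0572). Rragd (A_55_P2287910, NM_027491) was well above background only on the first array of wild-type control replicate 3, at a signal of 24.3, and read 3.67 to 16.1 on the other 13 arrays. It was therefore not tested, and no fold is given.

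Mcoln1 (A_51_P482029, NM_053177), the lysosomal calcium channel, read 6.62, 6.61 and 6.62 in wild-type controls and 5.85, 5.96 and 6.15 in transgenic controls. With tumour material it read 6.44, 6.66 and 6.39 in wild-type and 6.42 and 6.14 in transgenic cells. The transgenic controls lay below all wild-type replicates. In control medium the log2 difference of transgenic minus wild-type cells was −0.62 ± 0.15 (adjusted p = 0.0242), and tumour material gave no called change in wild-type (−0.15, interval −0.45 to 0.15) or transgenic cells (0.28, interval −0.11 to 0.68). Several settings moved this value: it was −0.31 without the arrays of slide column 4 (adjusted p = 0.189), −0.29 with that column as a term (adjusted p = 0.247), −0.74 on slide 1 and −0.39 on slide 2, and 0.04 with normexp background correction on the median signal (adjusted p = 0.88). It was −0.54 without transgenic control replicate 1 (adjusted p = 0.0348) and not called when wild-type control 1 (−0.63, adjusted p = 0.056) or 3 (−0.62, 0.139) was left out. The part of the column's spatial correction in the result was not tested.

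**Figure D3:**
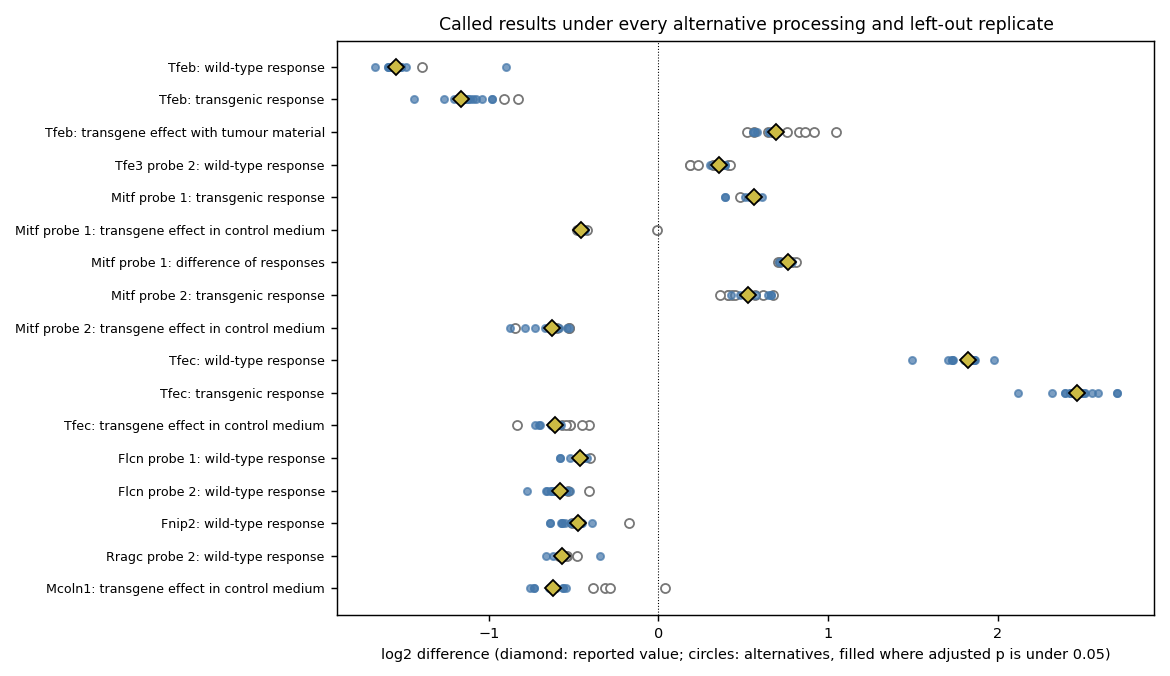
Log2 difference of every called member result as reported (diamonds) and under each alternative processing or left-out replicate (circles, filled where the adjusted p stayed under 0.05). The circles of Tfec with tumour material are all filled, and among results of control medium those of Mcoln1 and Mitf probe 1 reach 0.04 and −0.01.

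Counted over all members, 13 of the 14 probes passed the filter on dim probes and were tested. With tumour material 7 of them passed in wild-type cells, 2 higher and 5 lower, where 39.6% of all probes passed (22.6% higher, 16.9% lower). In transgenic cells 4 passed, 3 higher and 1 lower, where 25.0% of all probes did (14.7% higher, 10.2% lower). The median member difference was −0.31 in wild-type and −0.10 in transgenic cells, beside medians of 0.04 and 0.06 over all probes. In control medium 4 probes were lower in transgenic cells and 0 higher, where 8.46% of all probes passed (3.38% higher, 5.07% lower); the member median was −0.20 against −0.03 over all, and it was 0.11 under normexp, which also moved the share of higher calls over all probes from 40.0% to 53.0%. In the same comparison 3 of 8 tested neutrophil and precursor markers were higher in transgenic cells and 2 of 7 tested macrophage markers were lower, their part in the result not being tested. Without transgenic control replicate 1, where the sum of the neutrophil and precursor markers was highest, all 4 member probes passed. That fit does not remove the marker difference. In the other transgenic controls Mpo, Elane and Ctsg stayed above every wild-type control, while Ngp, Ltf, Camp, S100a8 and S100a9 lay below. With tumour material 1 member probe, Tfeb, was higher in transgenic cells, where 4.38% of all probes passed (1.85% higher, 2.53% lower), and the median was 0.13 against −0.02. The difference of responses passed for 1 probe, Mitf probe 1, where 1.62% of all probes did (0.876% higher, 0.747% lower), and the median was 0.35 against 0.01. The transgenic comparisons share their groups with the responses, so these counts are not independent of each other.

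The promoters of the members are shown where they hold the palindromic E-box CACGTG, the core of the sites that MiT/TFE proteins bind. RefSeq windows on GRCm38.p6, from 250 bases before to 50 after each annotated start, were at hand for all 10 genes, 15 windows in all. CACGTG was in 3 of them, of Fnip1, Rragc and Mcoln1, that is in 3 of 10 genes, where 7.15% of 32851 windows and 8.09% of 27025 genes hold it. CATGTG, searched on both strands, was in 0 member windows and 14.2% of all. Stretches of 120 bases, from 140 to 21 bases before the start and on the plus strand, are given 5′ to 3′ with CACGTG in capitals; they lie at chr11:54438039-54438158 (Fnip1), chr4:123917293-123917412 (Rragc) and chr8:3500379-3500498 (Mcoln1).
Fnip1: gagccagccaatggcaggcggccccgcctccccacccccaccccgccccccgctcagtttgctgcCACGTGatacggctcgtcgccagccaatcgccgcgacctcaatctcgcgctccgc
Rragc: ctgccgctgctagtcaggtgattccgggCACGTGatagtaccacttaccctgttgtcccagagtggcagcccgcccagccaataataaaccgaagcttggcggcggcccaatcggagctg
Mcoln1: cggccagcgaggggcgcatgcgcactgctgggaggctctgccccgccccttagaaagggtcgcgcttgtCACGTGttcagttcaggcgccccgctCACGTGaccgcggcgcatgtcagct
The motif begins 75 bases before the start in Fnip1, 112 in Rragc, and 71 and 45 in Mcoln1. A match of letters shows no binding, and no match elsewhere says only that these letters are not in these windows.

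Of 54 other genes of lysosomal nutrient signalling and MiT/TFE localisation, 46 were tested by their brightest probe. With tumour material 7 rose and 11 fell in wild-type cells, where 39.6% of all probes passed, and 3 rose and 5 fell in transgenic cells, where 25.0% did; the list medians, 0.00 and −0.08, lay near those of all probes. In wild-type cells Deptor, an mTOR inhibitor, changed by −2.51 ± 0.23 on the log2 scale, the leucine sensor gene Sesn1 by −2.50 ± 0.37 and Bmt2 by −1.52 ± 0.15. Mcoln3, a relative of Mcoln1, was not well above background on any wild-type tumour array and was at least 3.96-fold lower there (scaled log2 means −4.38 and −0.89, adjusted p = 9.51e-06). In transgenic cells the same genes fell, with log2 differences of −2.06 for Mcoln3, −1.99 for Sesn1, −1.46 for Bmt2 and −1.10 for Deptor. Sesn2, another leucine sensor, rose by 1.19 ± 0.20 in transgenic cells (adjusted p = 0.00103) and by 0.46 ± 0.15 in wild-type cells (adjusted p = 0.0302). Of the 4 tested sensor genes for amino acids or S-adenosylmethionine (Sesn1, Sesn2, Castor2 and Bmt2), 3 fell and 1 rose in each genotype. The Ragulator scaffold gene Lamtor3 rose in both (0.52 and 0.67), while Lamtor2, Lamtor4 and the arginine sensor gene Slc38a9 fell in wild-type cells (−0.93, −0.63 and −0.60). The 14-3-3 genes Ywhaz (0.60) and Ywhag (0.58) and the GATOR2 gene Sec13 (0.55) rose in wild-type cells, and the GATOR1 gene Nprl3 (0.53) in transgenic cells.

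Calls on Ywhaz, Sec13 and Lamtor3 in wild-type cells were lost without wild-type tumour replicate 3 (highest adjusted p over left-out replicates 0.121, 0.0605 and 0.0576), and that on Ywhaz also without transgenic tumour replicate 3. In transgenic cells Mcoln3 and Lamtor3 did not pass without transgenic control replicate 3 (adjusted p = 0.0834 and 0.106), nor Deptor without transgenic tumour replicate 3 (adjusted p = 0.171). Nprl3 did not pass without wild-type tumour 3, transgenic control 3 or transgenic tumour 3 (adjusted p up to 0.207). Under quantile normalization Lamtor3 passed in neither genotype, nor did Nprl3 in transgenic cells. With normexp Lamtor3, Nprl3 and Sesn1 did not pass in transgenic cells. Deptor did not pass there with repeat arrays averaged or left out. Fits with a replicate left out are not given for Lamtor2, Lamtor4 and Slc38a9, nor for Sesn2 in wild-type cells.

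Between genotypes 2 of the 46 genes passed in control medium, where 8.46% of all probes did, both higher in transgenic cells: Bmt2 (0.58 ± 0.16, adjusted p = 0.0474) and Castor2 (0.46 ± 0.12, adjusted p = 0.0323). Of the 11 fits that leave out a replicate, 2 kept the call on Bmt2 and 4 that on Castor2. With tumour material 2 passed, where 4.38% of all probes did, and both encode relatives of Mcoln1. Mcoln3 was at least 2.44-fold higher in transgenic cells (scaled log2 means −1.59 and −4.38, adjusted p = 0.0046), and Mcoln2 was 1.45 ± 0.29 higher on the log2 scale (adjusted p = 0.0155), and neither was called without wild-type tumour replicate 3 or transgenic tumour replicate 3 (adjusted p up to 0.159 and 0.467), with repeat arrays averaged or left out, or on slide 2. No difference of responses passed in limma, where 1.62% of all probes did, and 5 genes had an unadjusted p under 0.05.

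**Figure D4:**
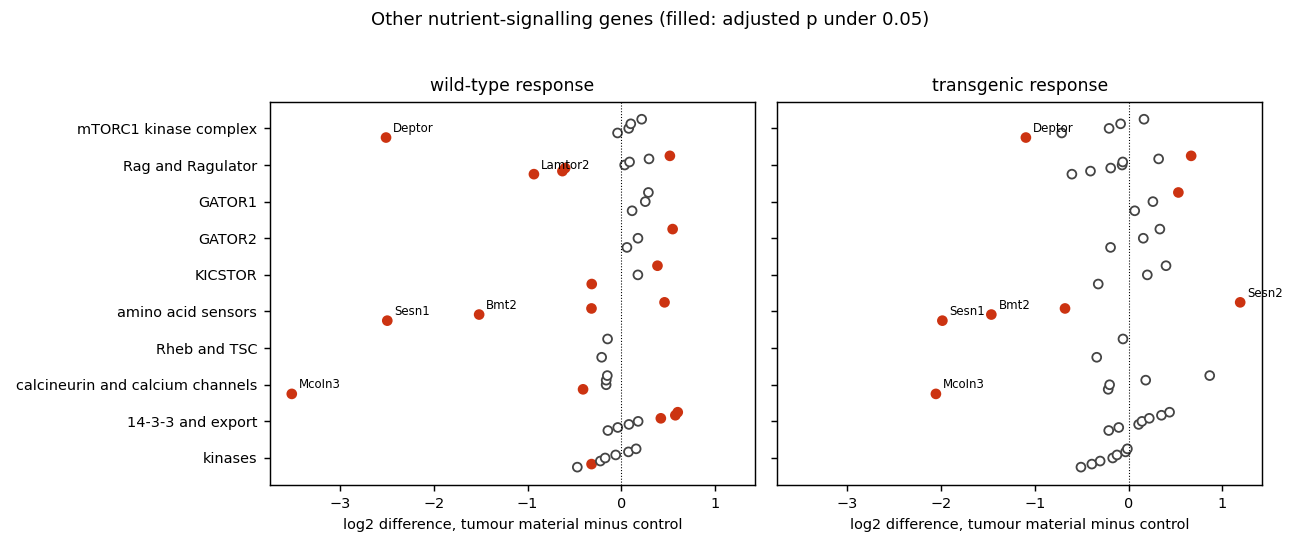
Log2 differences with tumour material of the 46 tested nutrient-signalling genes, by complex, in wild-type and transgenic cells; filled points passed at an adjusted p under 0.05, and called genes beyond 0.9 are named. Mcoln3, Sesn1, Bmt2 and Deptor lie far to the left in both genotypes while most genes lie near 0.

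Of 21 genes often placed downstream of MiT/TFE factors, 19 were tested. Called in response to tumour material were 7 in wild-type cells, where 39.6% of all probes were, and 4 in transgenic cells, where 25.0% were. In wild-type cells 2 rose with tumour material, Acp5 (1.67 ± 0.29), a phosphatase of osteoclasts and macrophages, and the autophagy receptor Sqstm1 (0.73 ± 0.17). In the same cells 5 fell: the proton pump subunit gene Atp6v0d2 (−1.78 ± 0.23), the lysosomal hydrolase genes Naglu (−0.81 ± 0.13) and Hexa (−0.78 ± 0.11), Ostm1 (−0.32 ± 0.10) and Gpnmb (−0.31 ± 0.11). In transgenic cells Acp5 (2.02 ± 0.38), Sqstm1 (0.86 ± 0.22) and the chloride transporter gene Clcn7 (0.60 ± 0.15) rose and Hexa fell (−0.52 ± 0.15). With tumour material 2 of the 19 passed between genotypes, where 4.38% of all probes did. Both were higher in transgenic cells: Atp6v0d2 (1.69 ± 0.30, adjusted p = 0.00781) and the protease gene Ctsk (1.50 ± 0.33, adjusted p = 0.0239). In limma 0 of the 19 passed between genotypes in control medium, where 8.46% of all probes did. For the difference of responses 0 passed, where 1.62% of all probes did. In each of these last 2 comparisons 4 had an unadjusted p under 0.05. Without wild-type tumour replicate 3, the calls on Sqstm1 in wild-type cells (adjusted p = 0.0636) and on Atp6v0d2 and Ctsk between genotypes (up to 0.227 and 0.27) were lost, the last 2 also without transgenic tumour replicate 3 and with repeat arrays averaged or left out, and Ctsk also without wild-type tumour replicate 1 or transgenic tumour replicate 2. In transgenic cells Acp5 did not pass without transgenic tumour replicate 3 (0.0603), Sqstm1 and Clcn7 without that or transgenic control replicate 3 (up to 0.205 and 0.0983), and Hexa in 4 of 11 such cases. Ostm1 lost its call in 6 of 11, and such fits are not given for Gpnmb. The list medians were −0.16 and 0.11 for the responses and −0.11 and 0.18 for the genotype differences. Acp5 and Ctsk are also osteoclast markers. Of 4 osteoclast markers tested, 2 were called higher and 1 lower with tumour material in each genotype. Of all probes 39.6% were called in wild-type and 25.0% in transgenic cells. Calcr and Ocstamp were above background on 0 arrays. The summed linear level of the 6 osteoclast markers was 87.0 to 112 in wild-type controls and 261 to 293 in wild-type cells with tumour material. It was 115 to 321 in transgenic controls and 466 to 546 in transgenic cells with tumour material, a sum made up mostly of Acp5 itself. Dcstamp went the other way, from 2.36, 2.67 and 2.86 in wild-type controls to 1.42, 1.30 and 1.21 with tumour material in scaled log2 signal. Their part in the result was not tested.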

How the data were processed

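Per the labels' protocols, 200 ng of total RNA was labelled with Cy3. Agilent Feature Extraction 10.7.3.1 read the scans, per the submitters' processing notes. As to units, the authors' deposited scanner files give each spot a background-subtracted, spatially detrended signal intensity and marks for spots above background, per the file headers. The deposited series matrix holds log2 values (median 2.84 on every array), which correlate with the log2 scanner signal at 0.999 or more; how they were normalized is not given in the sources used.

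Control spots and outlier spots (166 to 270 per array) were left out, and 47 probes without a usable spot on some array were dropped. Each log2 signal was scaled to its array's 75th percentile (83.0 to 142 in signal); the number of arrays limits the precision. Probes that every array of some group measured well above background (20208) were fitted with limma 3.58.1 (R 4.3.3), tested on simulated data, with 4 group means, a slide term and a random block for arrays of 1 replicate (correlation 0.048, 9 residual degrees of freedom). Titles ending in -2 were read as repeat arrays. At that correlation the 3 repeat arrays counted almost as separate samples. Averaging them left 6 residual degrees of freedom. Calls over all probes then went from 7993 to 6768 in the wild-type and from 5043 to 3273 in the transgenic response. Between genotypes they went from 1709 to 1392 in control medium and from 885 to 177 with tumour material. For the difference of responses they went from 328 to 65. Same-numbered samples of different groups deviated together in 3 of 15 pairs only and were not paired. Symbols came from RefSeq accessions; 28311 probes have 1 and 27323 none.

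A fold against a dim group is a lower bound, set against the higher of the probe's own signal and the dimmest signal still marked well above background, per array. All members are reported; of the other lists, up to 4 called genes with the largest change in each direction per comparison are named, and Lamtor2, Lamtor4, Slc38a9 and Gpnmb were added after their values were seen, as was the Sesn2 value in wild-type cells. Members and lists were chosen with earlier results of these data known. A gene that the naming rule selects is not reported here.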

Additional observations from a re-analysis of the deposited data

Results flagged for a closer look

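The response of Mitf to tumour material differed between genotypes by a test of the difference itself: Mitf probe 1 gave 0.76 ± 0.14 on the log2 scale for transgenic minus wild-type response (limma, adjusted p = 0.0164). It was called in 9 of 11 fits that left out a replicate and not called without wild-type tumour replicate 3 (adjusted p = 0.214) or transgenic tumour replicate 3 (adjusted p = 0.129), with the difference between 0.72 and 0.81 throughout. Other settings also lost the limma call on probe 1. These were normexp (0.71, adjusted p = 0.228), no filter on dim probes (0.76, 0.119) and slide 2 alone (0.72). With repeat arrays averaged it was 0.78 (adjusted p = 0.133) and with them left out 0.79 (0.0907), neither called. The second Mitf probe gave 0.84 and an adjusted p of 0.0577.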

How the results depend on the processing

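The counts of called member probes moved by over 1.5 times as follows. The share of all probes called moved too, so the counts are not results about the members alone. In the order below it was 39.6%, 25.0%, 8.46%, 4.38% and 1.62% in the main fit. Without the filter it was 12.6%, 6.38%, 1.9%, 1.05% and 0.34%. With column 4 as a term it was 36.1%, 24.2%, 3.45%, 2.46% and 1.1%. In control medium it was 2.51% without wild-type control replicate 3 and 16.5% without transgenic control replicate 1. The wild-type response (7 probes) gave 4 with the brightest probe per gene, fewer calls on slide 2 and 4 to 10 with a replicate left out. The fit with the brightest probe did not test probe 2 of Tfe3, Mitf, Flcn or Rragc. For Tfe3, Flcn and Rragc that probe was among the 7, and no call on a probe still tested changed. The transgenic response (4) gave 1 with normexp, 1 on slide 2, 7 without slide column 4 and 3 to 5 with a replicate left out. The genotype difference in control medium (4) gave 1 without the filter on dim probes, 0 on slide 2, 1 with column 4 as a term and 0 to 5 with a replicate left out. With tumour material (1) it gave 0 without the filter, on slide 2, with repeat arrays averaged or left out, with column 4 as a term and with the replicate block, and 0 to 1 with a replicate left out; the 1 call under normexp was Mitf probe 1, not Tfeb. The difference of responses (1) gave 0 with normexp, without the filter, on slide 2 and with repeat arrays averaged or left out, 2 without column 4 and 0 to 2 with a replicate left out. With the replicate number as a block the 5 counts were 6, 4, 4, 0 and 1. Mcoln1 in control medium reversed to 0.0362 under normexp. Quantile normalization and the series matrix each gave 10 for the wild-type response. Of 187 comparisons of called results with a replicate left out, 31 lost the call; of 210 under other settings, 58 did. Slide 2 has 1 residual degree of freedom, and 1 replicate each of the wild-type control, wild-type tumour and transgenic control groups. Calls over all probes also fell or were lost there, so its counts are no result about the members. Slide 1 holds no transgenic tumour array, so comparisons with that group could not be run there. Where transgenic tumour replicate 3 was left out, the lone replicate is assumed to vary like the others. The planned normexp on the mean signal was not run; the median signal was used instead, chosen after seeing the data. The causes of these changes were not tested.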
